A study of Mus musculus with 8 samples.

Results

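The Hippo pathway, with the coactivators YAP and TAZ and the TEAD factors they work through, was followed here by 10 genes in neonatal cardiomyocytes (NCMs) after in utero exposure to filtered air (FA) or diesel exhaust (DE). The genes were Yap1, Wwtr1, Tead1, Tead2, Tead3, Tead4, Lats1, Lats2, Sav1 and Vgll4. They were chosen by symbol, matched to the Entrez gene identifier of each row of the table of counts, and 10 of 10 were found among its 27179 genes. RNA-seq was performed on 8 libraries, each from the NCMs of 1 male C57Bl/6 J heart taken at birth, on postnatal day 0, with 4 libraries from FA offspring (replicates 2, 3, 4 and 6) and 4 from DE offspring (replicates 1, 3, 5 and 7). Dams of both groups were mated in FA and then breathed either FA or DE from E0.5 to E17.5 of gestation. The methods state 3 hearts per group without saying which, so all 8 libraries were used, and nothing in the labels ties hearts to litters. NCMs were separated from fibroblasts by letting the latter attach to a plate, so each library is a cardiomyocyte preparation that can hold other heart cells.

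Hippo signalling is a kinase chain that limits growth. The kinases STK3 and STK4, with the scaffold SAV1, activate LATS1 and LATS2, and these phosphorylate YAP (from Yap1) and TAZ (from Wwtr1), which are then held in the cytoplasm or degraded. YAP and TAZ that escape phosphorylation bind TEAD factors on DNA and turn on growth genes, while VGLL4 competes with them for TEAD. In the fetal and newborn heart YAP drives cardiomyocyte division, and TEAD1 also binds the M-CAT element of muscle gene promoters. RNA levels do not measure phosphorylation or the place of these proteins in the cell.

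TEAD factors recognise the M-CAT core GGAATG, or CATTCC on the other strand, and the promoters of the genes themselves were read for these letters because both the factors and several of their known targets are measured here. In RefSeq promoters of GRCm38.p6, which run from 250 bases before a start site to 50 bases after it, the core stood in 4817 of 32851 promoters (14.7%) and in 4481 of 27025 genes (16.6%). A promoter was found for 8 of the 10 genes. Of these, 6 (75.0%) held the core, and Tead2 and Lats1 did not in the windows read. In the lists described further on, it stood in 7 of 15 target genes with a promoter (46.7%), 5 of 6 M-CAT muscle genes, 1 of 14 kinases and partners, 5 of 15 junction regulators, 1 of 9 STRIPAK genes and 2 of 10 cofactors and degradation factors. Stretches of 30 bases around the core, with the core in capitals, are given 5′ to 3′ on the strand of each gene for those 6 genes and for Ccn1 and Ankrd1, 2 of the targets that hold it:
Yap1: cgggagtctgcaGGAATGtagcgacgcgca
Wwtr1: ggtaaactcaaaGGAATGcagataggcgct
Tead3: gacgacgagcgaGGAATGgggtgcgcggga
Lats2: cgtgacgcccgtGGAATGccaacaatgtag
Sav1: cggctttcccagCATTCCcagcggcgcggg
Vgll4: cgagtggggtggGGAATGctgagaaatgcc
Ccn1: cgcgccaaccaaCATTCCtgagatgtttga
Ankrd1: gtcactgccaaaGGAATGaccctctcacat
The cores began 141 bases before the start site in Yap1 (chr9:8004720-8004749, minus strand), 136 before it in Wwtr1 (chr3:57576029-57576058, minus strand) and 182 before it in Tead3 (chr17:28350970-28350999, minus strand). In Sav1 the core began 106 bases before the start site (chr12:69987091-69987120, minus strand) and in Vgll4 82 bases before it (chr6:114969268-114969297, minus strand). The core of Lats2 lay 5 bases after its start site (chr14:57746102-57746131, minus strand). In the targets it began 103 bases before the start site of Ccn1 (chr3:145650071-145650100, minus strand) and 210 before that of Ankrd1 (chr19:36120037-36120066, minus strand). Ankrd1 held another core 123 bases before its start site, and Tead3 held 3 more at another of its start sites. A match to 6 letters is a description of the sequence, and binding was not measured here.

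Vgll4 is the gene on which the comparison below turns, and its 250 bases before this start site (chr6:114969204-114969453, minus strand) are shown whole, again with the core in capitals. Which of its annotated start sites NCMs use was not measured.
Vgll4: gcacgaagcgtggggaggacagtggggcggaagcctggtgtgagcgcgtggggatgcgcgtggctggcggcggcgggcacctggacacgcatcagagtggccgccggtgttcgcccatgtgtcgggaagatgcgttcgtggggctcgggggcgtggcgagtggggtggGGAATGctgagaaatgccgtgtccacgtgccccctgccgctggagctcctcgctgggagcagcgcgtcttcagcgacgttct

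Libraries held between 17943024 and 39839737 counts, and 14966 genes passed the filter on low counts, all 10 Hippo genes among them. Levels are given as CPM (counts scaled to library size, normalized between libraries by TMM factors). The exposures were compared by the quasi-likelihood test of edgeR. Following the thresholds of the methods, a gene counted as called where its Benjamini-Hochberg adjusted p was at most 0.05 and DE and FA differed by at least 25%. Over all genes 5.8% were called, with 536 higher and 332 lower in DE (803 and 217 when libraries were scaled by their totals alone). The sample names carry the prefix 11 in the 4 FA libraries and in DE replicates 1 and 7, and the prefix 12 in DE replicates 3 and 5. What the prefix stands for is not given in the sources used here. The libraries also differed in how counts followed the exon length of genes, with slopes between -0.176 and 0.169 on the log2 scale per doubling of length over 12667 genes, positive in FA replicates 2 and 4 and DE replicates 1 and 7 and negative in the other four.

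Of the 10 Hippo genes, 1 was called between DE and FA NCMs. Vgll4 (Entrez 232334, chr6:114860621-114970007), which encodes the TEAD-binding competitor of YAP and TAZ, fell by 32.5% in DE. The other nine, the coactivators, the TEAD factors, the LATS kinases and SAV1, did not pass the test. The share called, 1 of 10, stands beside 5.8% of all genes tested, and 2.22% of all genes were called lower in DE. At an unadjusted p under 0.05 there were 2 of the 10, beside 25.6% of all genes.

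Vgll4 lay at 43.9, 36.5, 39.1 and 34.6 CPM in FA replicates 2, 3, 4 and 6. It lay at 32.3, 22.8, 22.3 and 26.7 CPM in DE replicates 1, 3, 5 and 7. Every DE library was below every FA library, and the closest pair across the groups was DE replicate 1 and FA replicate 6. The mean fell from 38.5 ± 4.02 to 26.0 ± 4.63 CPM (SD over 4 libraries of FA and 4 of DE). The log2 fold change was -0.57 (SE 0.13, 95% interval -0.86 to -0.27, edgeR quasi-likelihood adjusted p = 0.0349). No overlap between groups was seen for 14.7% of all genes. Between 501 and 1642 fragments per library stood behind these values, and no other gene shares an exon with Vgll4 in the annotation. In bulk RNA, fewer cells of a type and less RNA per cell cannot be told apart. The markers of cardiomyocytes summed to 81639 to 86273 CPM in FA and 68881 to 79543 in DE (13 of 13 genes found, with 1 called higher and 2 lower), with no overlap. The separation of the sums rested on Myh6. Without it the sums were 58830 to 62157 CPM in FA and 55104 to 64123 CPM in DE and overlapped. By fold change, 11 of the 13 genes were below 0 and 2 above it, with a median of -0.15. The markers of fibroblasts summed to 2227 to 3758 CPM in FA and 4050 to 6809 in DE, with 10 of 10 genes higher in DE and 4 of them called, and their part in the fall of Vgll4 was not tested.

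**Figure D1:**
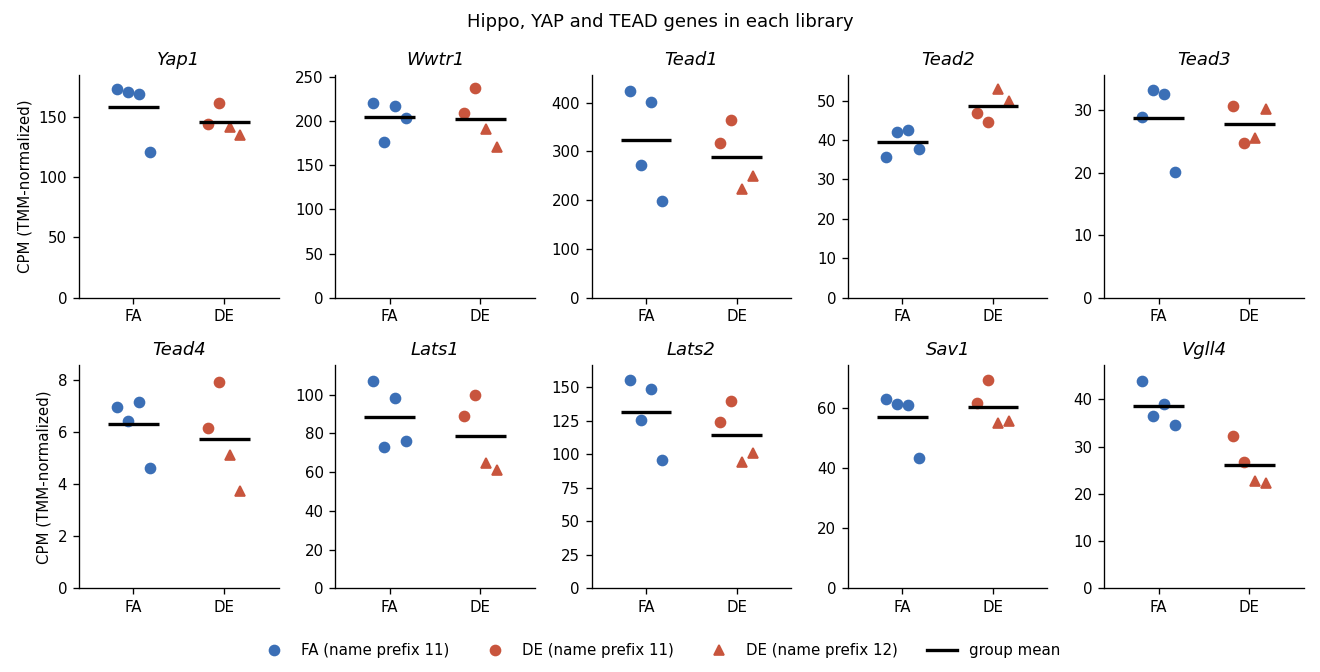
CPM (y axis, from 0) of the 10 Hippo genes in each of the 4 FA and 4 DE libraries, 1 panel per gene, with triangles for the DE libraries whose names carry the prefix 12 and black lines for group means. The 4 Vgll4 values of DE lie below the 4 of FA, the 4 Tead2 values of DE lie above those of FA, and in the other panels the groups overlap.

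The call of Vgll4 rested on a small margin. It held with DESeq2 (adjusted p = 0.00384), limma-voom (adjusted p = 0.0329) and offsets for exon length (log2 fold change -0.67, adjusted p = 0.0230), and over 21 alternatives the fold change ran from -0.69 to -0.38 with adjusted p between 0.00384 and 0.288, and Vgll4 was called in 11 of them. Among the 6 libraries with prefix 11 the fold change was -0.39 (adjusted p = 0.188), and with the prefix as a term it was -0.38 (adjusted p = 0.143). Leaving out FA replicate 2, 3 or 4 or DE replicate 3, 5 or 7 raised the adjusted p to between 0.0520 and 0.118 with fold changes of -0.59 to -0.50, while the call held without FA replicate 6 or DE replicate 1.

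**Figure D2:**
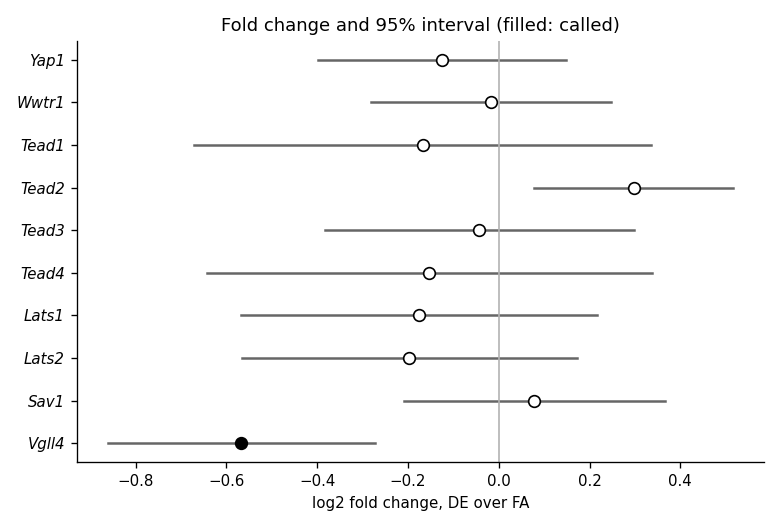
log2 fold change of DE over FA (x axis) for the 10 Hippo genes, with bars for the 95% interval of the edgeR fit on all 8 libraries. The interval of Vgll4 runs from -0.86 to -0.27 and that of Tead2 from 0.08 to 0.52, while those of the other eight include 0.

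Among the coactivators, Yap1 (Entrez 22601, chr9:7931999-8004638) encodes YAP. It lay at 174, 171, 169 and 121 CPM in FA replicates 2, 3, 4 and 6 and at 144, 142, 135 and 161 CPM in DE replicates 1, 3, 5 and 7. FA replicate 6 was the lowest of the 8 libraries and the other FA libraries were above all DE libraries, so the groups overlapped through that library alone. The fold change was -0.13 (SE 0.12, 95% interval -0.40 to 0.15, adjusted p = 0.552), and without FA replicate 6 it was -0.24 (adjusted p = 0.160). Wwtr1 (chr3:57455644-57575910), which encodes TAZ, lay at 221, 176, 217 and 204 CPM in FA and at 209, 191, 171 and 237 CPM in DE, in the same order of replicates. The lowest and the highest of the 8 values were both DE libraries. Its fold change was -0.02 (SE 0.12, 95% interval -0.28 to 0.25, adjusted p = 0.945), so the interval stayed within a 25% difference in either direction, and the sign turned under 5 alternatives of scaling, length or prefix.

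The TEAD genes encode the DNA-binding partners of YAP and TAZ. Tead2 (Entrez 21677, chr7:45215792-45233468) lay at 35.7, 42.2, 42.7 and 37.8 CPM in FA replicates 2, 3, 4 and 6. In DE replicates 1, 3, 5 and 7 it lay at 46.8, 53.0, 49.8 and 44.6 CPM. Every DE library was above every FA library, with a fold change of 0.30 (SE 0.10, 95% interval 0.08 to 0.52, adjusted p = 0.0973), and the mean difference of 22.8% was under the threshold of 25% as well. Over 21 alternatives the fold change of Tead2 ran from 0.21 to 0.37, and Tead2 was called in 0 of them. DESeq2 gave an adjusted p of 0.0499 with a difference still under 25%.

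Tead1 (chr7:112679356-112906784), the M-CAT factor of heart muscle, lay at 424, 271, 401 and 199 CPM in FA and at 317, 223, 249.6 and 364 CPM in DE replicates 1, 3, 5 and 7. Values within each group were spread widely, with an SD of 107 CPM about a mean of 324 in FA and of 64.1 about 288 in DE. The fold change was -0.17 (SE 0.23, 95% interval -0.67 to 0.34, adjusted p = 0.677), an interval too wide to place Tead1 on either side of 0. It ran from -0.34 (without FA replicate 6) to -0.01 (without FA replicate 2) with each library left out. Tead3 ranged from 20.0 to 33.3 CPM in FA and from 24.8 to 30.7 CPM in DE, with a fold change of -0.04 (SE 0.16, adjusted p = 0.887). Tead4, the least abundant TEAD gene, ranged from 4.62 to 7.16 CPM in FA and from 3.74 to 7.94 CPM in DE, on 94 to 261 fragments per library (fold change -0.15, SE 0.22, adjusted p = 0.698).

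The LATS kinases and their scaffold partner showed no called difference. Lats1 (chr10:7681200-7716461) lay at 107, 72.8, 98.5 and 76.3 CPM in FA and at 88.9, 64.6, 61.1 and 99.98 CPM in DE replicates 1, 3, 5 and 7. Lats2 (chr14:57689662-57746212) lay at 155, 126, 148 and 95.5 CPM in FA and at 124, 94.0, 101 and 140.2 CPM in DE. In both genes FA replicates 2 and 4 lay above FA replicates 3 and 6, and DE replicates 1 and 7 lay above DE replicates 3 and 5, so the spread within a group was wider than the distance between the group means. The fold change was -0.18 (SE 0.18, adjusted p = 0.560) for Lats1 and -0.20 (SE 0.17, adjusted p = 0.487) for Lats2. With each library left out Lats1 ran from -0.32 to -0.07 and Lats2 from -0.32 to -0.11. Sav1 (chr12:69965009-69988141) ranged from 43.4 to 62.8 CPM in FA and from 54.9 to 69.2 CPM in DE (fold change 0.08, SE 0.13, adjusted p = 0.738), and FA replicate 6 held its lowest value. Exons of Lats2 overlap the gene Gm49361 on the same strand over 1301 bases, and those of Sav1 overlap Atl1 on the other strand over 1336 bases. Yap1 and Tead2 have shorter overlaps, of 116 and 17 bases, with genes on the other strand. How fragments on shared exons were counted is not given in the sources used here, so these counts may be split or lack part of the reads.

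As a set, 2 of the 10 genes had a fold change above 0 (Tead2 and Sav1), beside 50.5% of all genes tested, and their median was -0.14 beside 0.00 over all genes. This balance depended on the fit. With offsets for exon length 4 of 10 were above 0 (median -0.06), with the name prefix as a term 7 were (median 0.08), and with each library left out between 1 and 4 were, with medians from -0.24 (without DE replicate 7) to -0.06 (without FA replicate 2).

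The wide spread of Tead1 and Lats1 within the groups ran with the exon length trend of the libraries. Their exons add up to 10051 bases in Tead1 and 7297 bases in Lats1, in annotated basic transcripts. The 4 libraries with a positive slope, FA replicates 2 and 4 and DE replicates 1 and 7, were the 4 highest in Tead1 and also the 4 highest in Lats1, with the groups mixed in each set. With offsets that remove this trend the fold change of Tead1 was 0.06 (adjusted p = 0.807) and that of Lats1 was -0.04 (adjusted p = 0.828). Vgll4, with 2028 exon bases in basic transcripts and 5396 in all annotated ones, was also higher at the positive slopes within each group. It lay at 43.9 and 39.1 CPM in the 2 FA libraries with a positive slope and at 36.5 and 34.6 CPM in the 2 with a negative one. In DE it lay at 32.3 and 26.7 CPM at positive slopes and at 22.8 and 22.3 CPM at negative ones. The offsets used the basic lengths alone, and with them the fold change of Vgll4 went from -0.57 to -0.67, a larger fall. A fit with the longer length was not run, so the size of this move depends on the basic length.

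**Figure D3:**
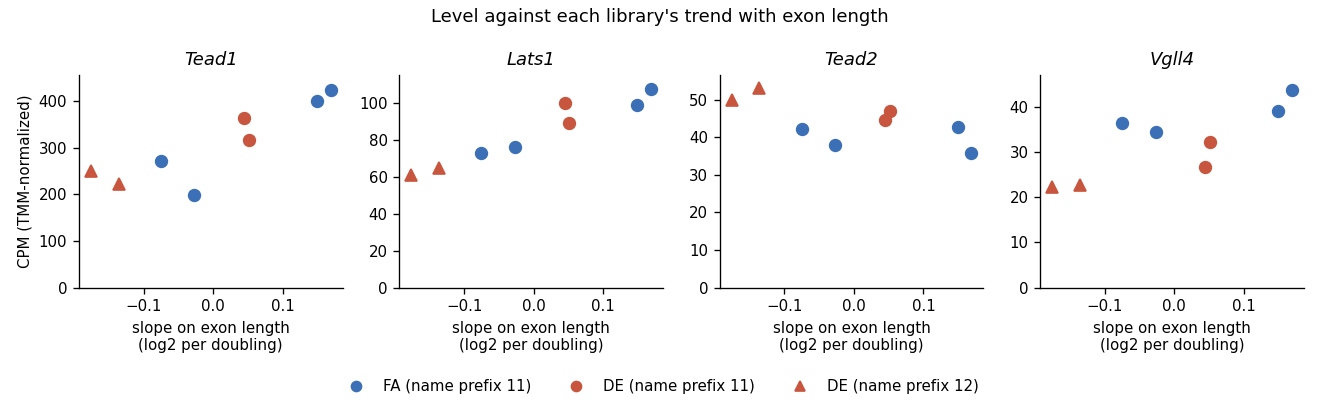
CPM of Tead1, Lats1, Tead2 and Vgll4 (y axes, from 0) against each library's slope of counts on exon length (x axis, log2 per doubling of length), 1 point per library. The higher Tead1, Lats1 and Vgll4 values of each group lie at the positive slopes.

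Levels of the genes were compared with each other per length, as FPKM (the same normalized values divided by the kilobases of exon). In FA, Wwtr1 stood highest at 42.8 ± 4.22 FPKM, followed by Yap1 at 38.1 ± 6.03 and Tead1 at 32.2 ± 10.6 (SD, n = 4). Sav1 (22.6 ± 3.63), Lats2 (20.3 ± 4.17) and Vgll4 (19.0 ± 1.98) came next, ahead of Lats1 (12.2 ± 2.31), Tead2 (11.3 ± 0.969) and Tead3 (9.31 ± 1.98). Tead4 was last at 1.75 ± 0.323 FPKM. Between neighbours in this order, the 4 values did not overlap for Vgll4 above Lats1 and for Tead3 above Tead4, and overlapped for all other neighbours. In DE the order was the same except that Tead2 (13.9 ± 1.04 FPKM) came before Vgll4 (12.8 ± 2.28) and both before Lats1 (10.8 ± 2.58), and Vgll4 and Lats1 overlapped there. The order depends on which transcripts give the length. With all annotated transcripts in place of the basic set, Wwtr1 stayed first and Tead3 and Tead4 stayed last, while the other seven changed places. Vgll4 (mean 7.14 FPKM) then lay below Tead2 (8.27 FPKM) in FA already.

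**Figure D4:**
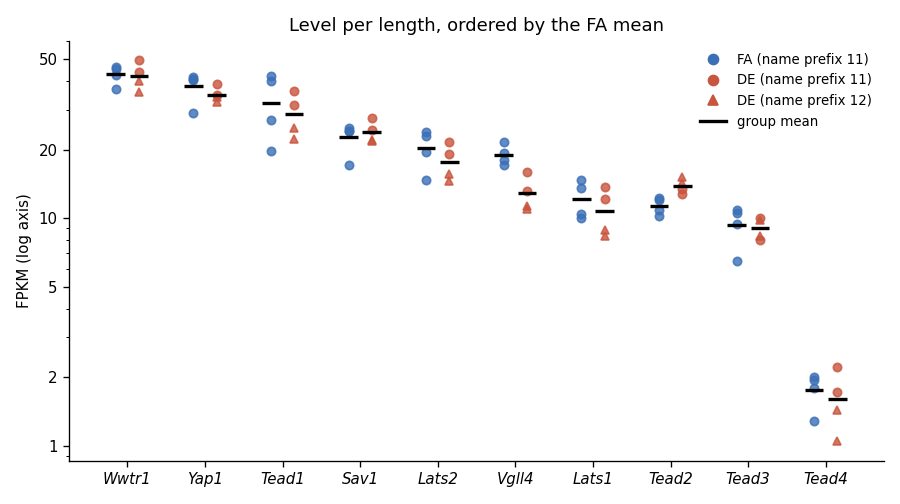
FPKM (y axis, log scale) of the 10 Hippo genes in each library, ordered by the FA mean, with triangles for DE libraries whose names carry the prefix 12 and black lines for group means. Wwtr1 is highest at 42.8 FPKM and Tead4 lowest at 1.75 FPKM in FA. With these basic-transcript lengths Vgll4 drops from sixth place in FA to below Tead2 in DE. With all annotated transcripts it lies below Tead2 in FA as well.

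Ratios between paralogs did not separate the groups. The ratio of Yap1 to Wwtr1, per length, was 0.897 ± 0.176 in FA and 0.831 ± 0.0594 in DE, and that of Lats2 to Lats1 was 1.67 ± 0.221 in FA and 1.66 ± 0.134 in DE (SD, n = 4). Tead1 made up 57.9% ± 7.20 of the summed TEAD level in FA and 53.4% ± 6.28 in DE. Tead2 made up 21.6% ± 5.32 in FA and 26.5% ± 4.81 in DE, with overlapping values. The level of Vgll4 relative to the summed TEAD level was 0.340, 0.349, 0.298 and 0.445 in FA replicates 2, 3, 4 and 6. In DE replicates 1, 3, 5 and 7 it was 0.282, 0.239, 0.220 and 0.222. Every DE library was below every FA library, as for Vgll4 itself, and the summed TEAD level overlapped between groups (38.4 to 64.6 FPKM in FA and 47.1 to 59.2 FPKM in DE). The size of these ratios depends on the transcripts that give the length. With all annotated transcripts, Yap1 to Wwtr1 was 0.404 in FA and 0.375 in DE, and Vgll4 to the summed TEAD level was 0.193 in FA and 0.130 in DE.

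Other genes of the pathway were counted in lists of its kinases, its regulators at cell junctions, the STRIPAK phosphatase complex that opposes STK3 and STK4, and cofactors and degradation factors of YAP. Of 63 genes found, 61 were tested and 0 were called by edgeR's quasi-likelihood test, beside 5.8% of all genes, while 9 had an unadjusted p under 0.05 (7 lower and 2 higher in DE), beside 25.6% of all genes. Limma-voom called 0, and DESeq2 and edgeR's likelihood ratio test each called 3, beside 10.9% and 10.7% of all genes called by these tools. Those 3 were Ywhag, one of the 14-3-3 proteins that hold phosphorylated YAP in the cytoplasm, Strip2, a STRIPAK subunit, and Dag1, the dystroglycan that anchors YAP at the membrane of cardiomyocytes. In the quasi-likelihood test their fold changes were -0.36 for Ywhag (adjusted p = 0.0647), -0.42 for Strip2 (adjusted p = 0.0743) and -0.46 for Dag1 (adjusted p = 0.0859). With the name prefix as a term they parted. Ywhag was called at -0.50 (adjusted p = 0.0344), while Strip2 (-0.37, adjusted p = 0.231) and Dag1 (-0.25, adjusted p = 0.380) were further from a call. In the prefix 11 libraries alone none of them was called. With length offsets Ywhag (-0.37, adjusted p = 0.0352) and Dag1 (-0.36, adjusted p = 0.0191) were called, and Strip2 was not (-0.27, adjusted p = 0.0681).

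By role, the upstream kinases and their partners had a median fold change of -0.15 over 17 genes, with 12 below 0, while 50.5% of all genes were above 0. That median was -0.04 with the prefix term, -0.08 with length offsets and -0.20 to -0.07 with each library left out (-0.07 without DE replicate 5). Stk4 lay at 31.6 ± 2.22 CPM in FA and 27.0 ± 3.74 in DE (adjusted p = 0.236), and Stk3 at 26.8 ± 2.53 and 29.0 ± 1.83 (adjusted p = 0.523). Stk38, a kinase related to LATS1 and LATS2, had the smallest adjusted p of this list (fold change -0.31, adjusted p = 0.0665). The junction regulators had a median of -0.08 over 19 genes, which turned to 0.03 with the prefix term and 0.02 with length offsets and ran from -0.15 to -0.04 with each library left out, with Frmd6 at -0.32 (adjusted p = 0.0851). In STRIPAK 11 of 12 genes were below 0, with a median of -0.11. With the prefix term 8 of 12 were below 0 (median -0.11), and with each library left out the median ran from -0.21 (without DE replicate 7) to -0.07 (without DE replicate 3). The cofactors and degradation factors, 13 tested of 15 found, had 6 genes above 0. Vgll1 and Vgll2, relatives of Vgll4, did not pass the filter on low counts. Vgll3, another relative, lay at 4.29 ± 1.37 CPM in FA and 6.96 ± 2.52 in DE, a fold change of 0.68 that did not pass (adjusted p = 0.171) and that was called with the name prefix as a term (1.08, adjusted p = 0.0369) and with length offsets (0.81, adjusted p = 0.0338), but not in the prefix 11 libraries alone. Amotl1, an angiomotin that binds YAP, was at 0.30 (adjusted p = 0.478) and was called with that term (0.73, adjusted p = 0.0178) and in the prefix 11 libraries (0.72, adjusted p = 0.0322), but not with length offsets (0.43, adjusted p = 0.0955).

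Of 22 known target genes of YAP and TEAD found, 21 were tested and 1 was called. Igfbp3, a binding protein of insulin-like growth factors, rose in DE. It lay at 32.7, 32.0, 33.0 and 40.6 CPM in FA replicates 2, 3, 4 and 6. In DE replicates 1, 3, 5 and 7 it lay at 56.1, 118, 79.6 and 87.3 CPM. Every DE library was above every FA library. The fold change was 1.30 (SE 0.19, adjusted p = 0.00401), and Igfbp3 was called under 21 of 21 alternatives, 1 of which repeats the reported fit. The study itself names Igfbp3 from these samples, so its place in the list is not independent evidence. The share called, 1 of 21, stands beside 5.8% of all genes, and 3.58% of all genes were called higher. At an unadjusted p under 0.05 there were 6, all higher in DE, beside 25.6% of all genes in either direction. The median fold change of the 21 was 0.21 and 14 were above 0, beside 50.5% of all genes. The size of this lean rested on single libraries. Without DE replicate 1 there were 11 of 21 above 0 with a median of 0.01, and without FA replicate 3 there were 12 with a median of 0.08. Other fits had more genes above 0, with 17 without DE replicate 5 and 16 without FA replicate 2, without DE replicate 3 or with the prefix term. The highest median with a library left out was 0.24, without FA replicate 6. The median was 0.10 without DE replicate 5 and with limma-voom, 0.13 without DE replicate 3, and 0.15 with the prefix term. Among those that were not called were the receptor Axl (0.53, adjusted p = 0.0693) and Fjx1 (0.70, adjusted p = 0.0865), which DESeq2 and the likelihood ratio test called. The fibroblast marker sum given above also rose without overlap, with a median fold change of 0.69 over its 10 genes, and its part in the target genes was not tested.

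The classical targets did not pass the test, and in each of them the DE libraries fell into 2 pairs. Ccn1, which encodes a matricellular growth regulator, lay at 315, 296, 303 and 236 CPM in FA, at 329.9 and 278 CPM in DE replicates 1 and 7, and at 432 and 399 CPM in DE replicates 3 and 5. Ccn2, the connective tissue growth factor, lay at 553, 538, 522 and 486 CPM in FA, at 569 and 521 CPM in DE replicates 1 and 7, and at 744 and 775 CPM in DE replicates 3 and 5. Ankrd1, a stress-induced ankyrin repeat protein of cardiomyocytes, lay at 902, 932, 1058 and 1152 CPM in FA, at 896 and 909.9 CPM in DE replicates 1 and 7, and at 1406 and 1503 CPM in DE replicates 3 and 5. The 2 libraries with the prefix 12 were the highest of the 8 in all 3 genes, and the other two DE libraries lay within or close to the range of FA. The fold changes were 0.32 for Ccn1 (adjusted p = 0.191), 0.31 for Ccn2 (adjusted p = 0.168) and 0.22 for Ankrd1 (adjusted p = 0.451). With the prefix as a term, which compares DE with FA within prefix 11, they were 0.08 for Ccn1, 0.05 for Ccn2 and -0.16 for Ankrd1. With offsets for exon length they were 0.21, 0.26 and 0.11 in the same order. Across fits with each library left out, Ccn1 ran from 0.22 to 0.42, Ccn2 from 0.22 to 0.40 and Ankrd1 from 0.08 to 0.33. DE replicates 3 and 5 also had the most negative slopes on exon length (-0.136 and -0.176). Within DE the prefix and that slope cannot be told apart.

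Of 6 muscle genes with textbook M-CAT promoters, 2 were called, in opposite directions, beside 5.8% of all genes called. Myh6, the alpha myosin heavy chain of the adult mouse heart, had a mean of 23286 ± 1519.6 CPM over the FA libraries and fell to 14613 ± 684.5 CPM under DE (SD, n = 4), with a fold change of -0.67 (SE 0.09, adjusted p = 0.00315). Myh7, the beta myosin heavy chain of the fetal heart, rose from 10016 ± 943 to 14485 ± 852 CPM, a fold change of 0.53 (SE 0.10, adjusted p = 0.0157). Groups did not overlap in either gene, which held for 14.7% of all genes, and the study names Myh6 from these samples. Myh7 had an adjusted p of 0.0512 with the prefix as a term and of 0.0724 in the prefix 11 libraries. Acta2, the smooth muscle actin, had a fold change of -0.63 (adjusted p = 0.0562) and was called by DESeq2 and the likelihood ratio test. Tnnt2 (-0.06), Acta1 (-0.31) and Actc1 (-0.20) were not called. Of these 6 genes, 4 also stand among the cardiomyocyte markers, whose sum separated the groups with Myh6 and overlapped without it, as given above.

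**Figure D5:**
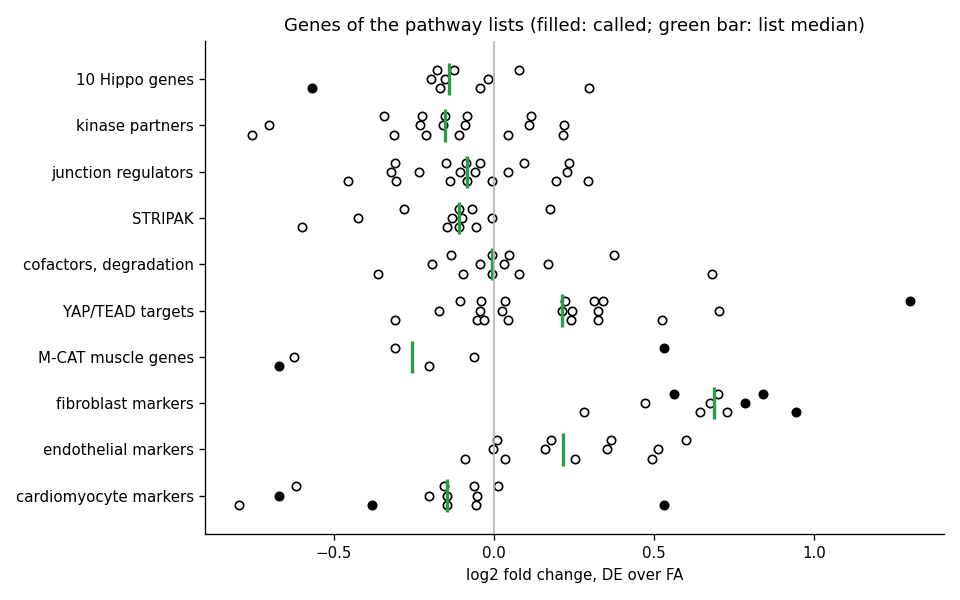
log2 fold change of DE over FA (x axis) for each tested gene of the pathway lists and of 3 marker lists (rows), with filled points for called genes and a green bar for the median of a list. Vgll4 is the filled point of the first row and Igfbp3 that of the target genes at 1.30, and the 4 lists of regulators and partners hold no filled point.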

How the data were processed

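Poly-A RNA was sequenced from stranded libraries. Per the labels and the methods, the authors aligned reads to mm10 with TopHat and marked suspected duplicates without removing them. Whether marked reads were counted is not given, so precision from counting may be overstated. FeatureCounts gave the deposited raw counts, in Entrez genes and not normalized. Annotation, strand and multi-mapping settings of this step are not given in the sources used here. Symbols were matched for 25275 of 27179 genes. Exon lengths (GENCODE vM21 basic transcripts on GRCm38, the assembly of mm10) were known for 92.55% of tested genes.

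Counts were filtered with filterByExpr (minimum 10) and tested with edgeR 4.0.16 in R 4.3.3 (TMM, glmQLFit and glmQLFTest), with no term but exposure, and p-values were adjusted (Benjamini-Hochberg) over 14966 genes. SE is the fold change over the root of F. The biological coefficient of variation was 15.95%, and no library was a copy of another. FA replicates 2 and 4 were the most alike (chi-square of 5.37 per gene, against 17.1 to 67.4 in the other pairs within groups), above sampling noise, and were kept as separate hearts. P-values measure the spread between hearts, which may share litters. The code was tested on simulated data.

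The alternatives comprised DESeq2 1.42.0, the likelihood ratio test, limma-voom (limma 3.58.1), the 25% difference inside the test, adjusted p alone, RLE and upper quartile factors, library totals, no filter, a mean of 1 CPM, the name prefix as a term, prefix 11 libraries only, each library left out, and offsets for exon length (splines with 5 degrees of freedom). Their use on Ccn1, Ccn2, Ankrd1, Igfbp3, Myh6 and Myh7, and lengths from all transcripts for levels and ratios, were added after seeing the data. The Hippo genes and lists were chosen with earlier results of these data known. Named genes were the 10 Hippo genes, Ccn1, Ccn2, Ankrd1 and every called gene of a list, and further genes of the lists were named after their values were seen. Of the marker lists, the sums of endothelial (0 of 12 called), smooth muscle and pericyte (0 of 9), mesothelial (0 of 8), leukocyte (0 of 5 tested) and erythroid (1 of 6) markers overlapped between groups, and all 13 cardiomyocyte markers were detected.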

Additional observations from a re-analysis of the deposited data

Results flagged for a closer look

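A sample far from the others of its group was looked for in 44 groups of 4 values, by Dixon's criterion at the 95% level, and was found in 3, all in FA replicate 6. Chance gives such a finding in about 5% of groups. Yap1 was 121.2 CPM in FA replicate 6 while the other FA libraries lay between 169.1 and 173.8 CPM. Sav1 was 43.4 CPM in the same library, against 60.97 to 62.82 CPM in the others. Igfbp3 was 40.6 CPM there, against 31.97 to 32.99 CPM. Without this library the fold change of Yap1 was -0.24 (adjusted p = 0.160), that of Sav1 was -0.03 (adjusted p = 0.867) and that of Igfbp3 was 1.39 (adjusted p = 0.00714), all by edgeR's quasi-likelihood test.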

How the results depend on the processing

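Of the 10 Hippo genes, 1 was called in the reported fit and 0 with the 25% difference inside the test, with library totals alone, with the name prefix as a term or in the prefix 11 libraries only, and between 0 and 1 with each library left out. Vgll4 kept its direction throughout, with adjusted p of 0.0504 under library totals. Of the regulators and partners 0 were called in the reported fit, 3 with DESeq2, the likelihood ratio test, the prefix term and length offsets, 1 in the prefix 11 libraries, and between 0 and 2 with each library left out (2 without DE replicate 1, 1 without DE replicate 5). Of the targets 1 was called, 3 with DESeq2 and the likelihood ratio test, 2 with library totals, 4 with length offsets, and between 1 and 2 with each library left out (2 without FA replicate 6 or DE replicate 5). Of the M-CAT genes 2 were called, 1 with the 25% difference in the test, the prefix term and the prefix 11 libraries, 4 with length offsets, and between 2 and 3 with each library left out (3 without DE replicate 1). Over all genes 868 were called, 1633 with DESeq2, 1603 with the likelihood ratio test, 114 with the 25% difference in the test, 448 with the prefix term, 260 in the prefix 11 libraries, 1450 with length offsets, and between 237 and 1168 with each library left out (249 and 237 without FA replicate 2 or 4, the pair most alike, 433 without FA replicate 3, and 268 and 526 without DE replicate 3 or 5). The cause of these moves was not tested.

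Signs turned only in genes that were not called. Wwtr1 (-0.02) became 0.00586 with upper quartile factors, 0.0528 with library totals, 0.128 with the prefix term, 0.123 in the prefix 11 libraries and 0.0325 with length offsets. With the prefix term and in the prefix 11 libraries, Tead1 became 0.0722 and 0.0685, Tead4 0.147 and 0.143, Lats1 0.0884 and 0.0845, Lats2 0.00650 and 0.00245, and Ankrd1 -0.163 and -0.168. Tead1 was 0.0594 with length offsets and Tead3 0.0279 with library totals. With each library left out, Wwtr1 ran from -0.109 to 0.0567, Tead3 from -0.182 to 0.0343, Tead4 from -0.343 to 0.0100 and Sav1 from -0.0334 to 0.128. Of the rest, 267 values of single genes kept their sign and their side of the threshold and 11 lost a call without a change of sign. No paired analysis was run, since nothing in the labels pairs FA hearts with DE hearts.

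Lengths from all transcripts, added after seeing the data, moved the mean ratio of Yap1 to Wwtr1 from 0.897 to 0.404 in FA and from 0.831 to 0.375 in DE, and that of Vgll4 to the summed TEAD level from 0.358 to 0.193 in FA and from 0.241 to 0.130 in DE, since the exon lengths differ.

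Of the 10 Hippo genes, Tead4 rested on the fewest fragments (94 to 261 per library). With 4 hearts per group, the 95% intervals of the uncalled Hippo genes other than Tead2 reached up to 0.37 above and 0.67 below 0 on the log2 scale.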
